A study of Mus musculus with 2 samples.

Results

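The Ronin ChIP peaks of mouse chromosome 7 in the newborn retina number 1958, of 37360 in the whole list and 34086 on the other 18 autosomes. They were chosen by their chromosome and are ranked by the order of the list, which runs by falling peak height, so both the membership and the ranks come from the measured values. The series holds 1 Ronin ChIP sample and 1 control sample, each from wild-type CD-1 retinae at postnatal day 0 with more than 10 retinae pooled, and neither has a replicate. Chromatin for the first was precipitated with a custom antibody against Ronin. The control is labelled both as input and as normal rabbit IgG, and its own values were not analysed here. A peak is a window of 191 bp in build mm9, and its height is its number of tags, that is mapped reads, recovered from the order of the list. Strong peaks are the highest rows of the list, those with 14 or more tags. They make up 1.06% of all peaks, and 52 of them lie on chromosome 7. The library held 3643141 tags. With 1 library no test between samples could be made, so the values below are descriptions, and their exact 95% intervals cover counting error only. The intervals also treat each peak or gene as independent. Strong peaks of chromosome 7 lie in groups, so intervals on them can be too narrow even for counting error.

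Ronin, the product of Thap11, binds DNA through a THAP-type zinc finger and acts together with the cofactor HCF-1. In embryonic stem cells it is known to sit close to the starts of many housekeeping genes, among them genes of mitochondrial and metabolic function. Its best-known recognition sequence begins with ACTACA and goes on, 2 bases later, with TCCC, and is shared with the zinc finger protein ZNF143. Mouse chromosome 7 is rich in genes: it carries large families of odorant and vomeronasal receptor genes, clusters of zinc finger genes and several imprinted regions.

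Bases under the mm9 peaks were not used here, so the sequences shown are RefSeq promoters of build GRCm38.p6, and no peak was placed at any of them. They are shown because chromosome 7 carries more promoters with the Ronin recognition letters than any other autosome examined. ACTACA, any 2 bases and TCCC were searched on both strands in the 250 bases before and 50 bases after each gene start. The letters were present in 595 of 32619 promoters (1.82%) and in 89 of the 2790 on chromosome 7 (3.19%). Counted by protein-coding gene, 76 of 1742 genes of chromosome 7 held them, and 26 of these are zinc finger genes. A run from Zfp180 to Zfp93 held them in 6 of 7 genes, and these 6 are zinc finger genes. Such a run starts and ends on a gene with the letters. It moves by steps of at most 2 along the genes with a promoter. A high share within a run therefore follows from its definition. The windows of the 6 zinc finger genes are given first. Then follow 4 genes taken at even steps of a list of other genes with the letters, in chromosome order. That list left out zinc finger genes, windows shared between genes and windows cut by the promoter's end. Capitals mark the searched letters and their 2-base spacer, and each line reads in the direction of the motif.
Zfp180: ctcaatggaACTACAATTCCCagaactctc
Zfp112: ccaggACTACACTTCCCagaattccc
Zfp111: tcttttgggACTACATTTCCCagaatgcta
Zfp109: ggcgccggaACTACAGTTCCCagaatgcgt
Zfp108: ggctccagaACTACAATTCCCagaatgcct
Zfp93: ggcgttggaACTACAATTCCCagaattcct
Ap2s1: tgcgtttaaACTACAACTCCCagagggccg
Ctu1: tgccctgggACTACAATTCCCataaggcct
Clpb: actaaacaaACTACATTTCCCcgagggctg
Vkorc1: gcctctccaACTACAATTCCCatcatgccc

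In all 6 zinc finger promoters of that run the letters lay on the strand opposite to the gene and went on with AG. Over chromosome 7, AG followed in 19 of 26 zinc finger genes (73.1%) and in 18 of the 50 others (36.0%). A second run, from Zfp84 to Zfp146, held the letters in 10 of its 14 genes, a share that again follows from how runs were defined. Of these 10 genes, 9 had TT as the spacer, against 22 of all 76. Zinc finger genes of one cluster descend from common ancestors, so their promoters are not independent sequences. The other 4 genes serve separate functions: Ap2s1 encodes a subunit of the clathrin adaptor, Ctu1 a tRNA thiolation enzyme, Clpb a mitochondrial disaggregase and Vkorc1 the vitamin K epoxide reductase. Over the 76 genes the upstream end of the letters, whichever strand they lay on, had a median position of -75 from the gene start. In 14 of them the window was shared with another gene, as for the head-to-head pair Lig1, a DNA ligase, and Zswim9, which leaves 69 distinct windows.

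The strong peaks set chromosome 7 apart from the other autosomes more than its total did. Of its 1958 peaks, 52 were strong, or 2.66% (exact Clopper-Pearson 95% interval 1.99% to 3.47%), against the 1.06% of the whole list. On the other autosomes together the share was 336 of 34086, or 0.986% (0.884% to 1.10%), and singly it ran from 0.383% on chromosome 14 to 1.60% on chromosome 11, with a median of 0.928%. Chromosome 11 came next in order, and its interval of 1.08% to 2.29% overlapped that of chromosome 7. Chromosome 8 followed at 1.40%. Since the strong class was part of how the members were chosen, these shares are a description.

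**Figure D1:**
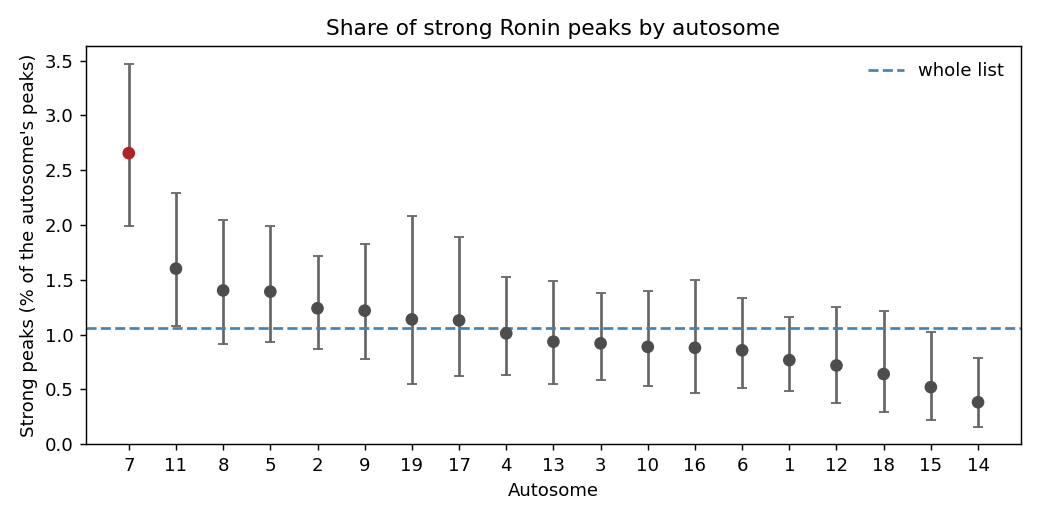
Share of each autosome's peaks that are strong (vertical axis, %), autosomes in falling order; points are shares, bars exact 95% intervals, and the dashed line the whole list at 1.06%. Chromosome 7 stands highest at 2.66%, with chromosome 11 next at 1.60%.

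The excess was seen in part of the height range. Per Mb of span, chromosome 7 held 0.885 times as many peaks of 6 tags as the other autosomes (exact 95% interval 0.828 to 0.946), 0.789 times as many of 7 tags (0.719 to 0.864) and 0.858 times as many of 8 or 9 tags (0.771 to 0.952). At 10 to 13 tags, with 111 peaks, the ratio was 0.924 (0.755 to 1.12), and its interval includes equality. It was 1.96 (1.24 to 2.98) at 14 to 19 tags, with 25 peaks. The ratio was highest at 20 to 29 tags, where chromosome 7 held 24 peaks and the other autosomes 100, which is 3.63 (2.23 to 5.72) per Mb. Above that only 3 peaks, with 30 or more tags, lay on chromosome 7 and 43 on the others, a ratio of 1.06 with a wide interval (0.210 to 3.30). The top of the list shows the same course by row. Of the first 50 rows 3 were on chromosome 7 (6%), of the first 100 rows 17 (17.0%), and of all strong rows 52 (13.2%). The chromosome 7 peaks of 24 tags stand at rows 95 to 99. A limit at row 100 takes them all in, while peaks of 24 tags on later chromosomes can fall outside it, which favours chromosome 7. At 20 or more tags, a limit that divides no peaks of equal tags, 27 rows were on chromosome 7 (15.6%). Tag counts near the top of the list are lower bounds, and peaks with equal tags stand in chromosome order, so small differences in row carry no height.

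**Figure D2:**
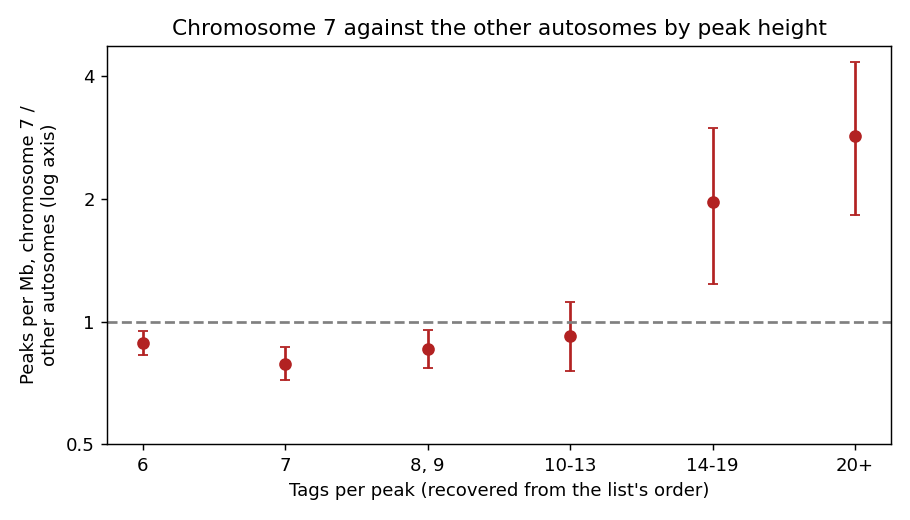
Peaks per Mb on chromosome 7 divided by that on the other 18 autosomes (log axis) for 6 classes of tags per peak; points are ratios and bars exact 95% intervals. The ratio lies below 1 up to 9 tags, at 0.924 for 10 to 13 tags, and at 1.96 and 2.86 in the top classes.

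Set against genes, the lead of chromosome 7 was smaller. The chromosome carries 2030 protein-coding genes in RefSeq (assembly GRCm38.p6), the highest number per Mb of the autosomes. Its 13.62 genes per Mb were close to the 13.55 of chromosome 11. Chromosome 11 had 0.244 strong peaks per Mb, against 0.349 on chromosome 7, and 1.80 per 100 genes. Chromosome 7 held 2.56 strong peaks per 100 genes, against 2.50 on chromosome 8, 2.34 on chromosome 3 and a median of 1.80 over the other autosomes. The pooled ratio to the other autosomes was 2.34 (1.72 to 3.15) per Mb and 1.42 (1.04 to 1.91) per gene. When strong peaks joined by steps of at most 1 Mb were taken as 1 locus, the ratio per Mb was 1.03 (0.593 to 1.69) over 17 loci, an interval that includes 1. Joined by steps of at most 1000 bp it was 2.26 (1.64 to 3.05), and of at most 100 kb 1.77 (1.22 to 2.49). Joining merges more peaks where strong peaks are denser, which lowers the ratio by itself. Receptor families account for part of the gene number of chromosome 7: 239 of the genes are odorant receptors named Olfr and 178 are vomeronasal receptors named Vmn, against 865 and 176 on all the other autosomes.

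The count of promoters with the Ronin letters was highest on chromosome 7 too. Among 18 autosomes with promoters in the table it had the most such genes, 76, followed by chromosome 13 with 43 and chromosome 11 with 41. Chromosome 18 had no promoters there, so the other autosomes of this paragraph are 17. Coverage was uneven: 1742 of 2030 protein-coding genes on chromosome 7 and 725 of 829 on chromosome 13 had a promoter. On chromosome 8 it was 725 of 1042 and on chromosome 15 422 of 776. The counts below carry this unevenness. As a share of genes it stood second, with 4.36% (3.45% to 5.43%), after chromosome 13 with 5.93%. Over the other autosomes the share was 2.89% (2.62% to 3.17%). The shares stood furthest apart among zinc finger genes: 26 of 95 on chromosome 7 held the letters (27.4%, 18.7% to 37.5%) and 35 of 252 elsewhere (13.9%, 9.87% to 18.8%). The pooled share hides chromosome 13, which had 35 zinc finger genes. Of its 43 genes with the letters only 23 were not zinc finger genes. Its zinc finger share was thus higher than that of chromosome 7. Without zinc finger genes the shares of chromosome 7 and the other autosomes were 3.04% (2.26% to 3.98%) and 2.70% (2.44% to 2.97%), with overlapping intervals. Chromosome 7 had 0.684 strong peaks for each gene with the letters, chromosome 13 had 0.395 and chromosome 3 had 1.53. Across the 18 autosomes the number of strong peaks went with the number of such genes at a Spearman correlation of 0.67, and at 0.61 without chromosome 7. With the number of all genes in the promoter table it was 0.84. These points share 1 library and chromosome size, and the correlations are descriptions. A match of letters is not a bound site.

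**Figure D3:**
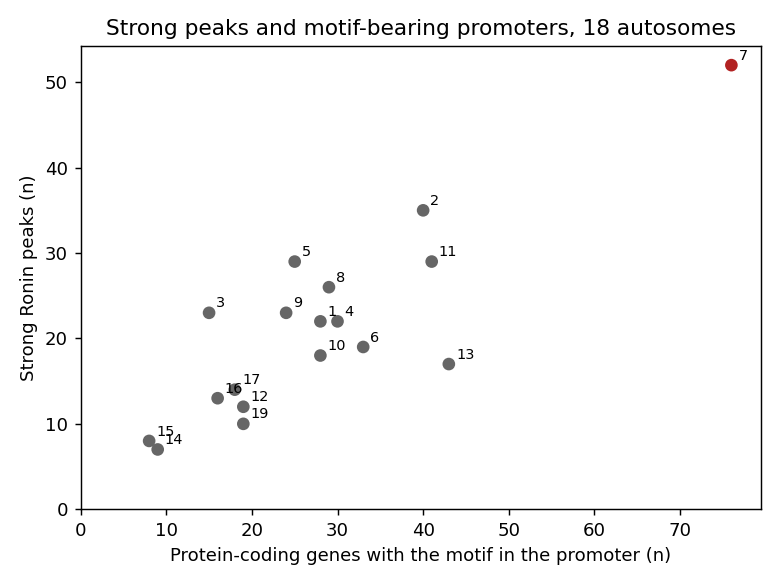
Strong Ronin peaks (vertical axis, number) against protein-coding genes whose promoter holds ACTACA, 2 bases and TCCC (horizontal axis, number), 1 labelled point per autosome for 18 autosomes. Chromosome 7, at 76 genes and 52 strong peaks, lies highest on both axes.

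Along the chromosome, more strong peaks lay towards the start than towards the end, and more 6-tag peaks towards the end. Of the 52 strong peaks 36 (69.2%, 54.9% to 81.3%) lay before the midpoint of the span at 78 Mb, against 361 of 925 peaks of 6 tags (39.0%, 35.9% to 42.3%). With strong peaks within 1 Mb counted once the share was 52.9% (27.8% to 77.0%) over 17 loci, an interval that includes the share of the 6-tag peaks. The share was larger in the higher classes: 22 of 27 peaks of 20 or more tags lay before the midpoint (81.5%), 14 of 25 of 14 to 19 tags (56.0%), and 48 of 111 of 10 to 13 tags (43.2%). On the other autosomes 42.3% of strong peaks and 49.9% of peaks of 6 tags lay before the midpoint. Chromosome 19, at 7 of 10 strong peaks (70%), was as one-sided as chromosome 7, and chromosome 8, at 6 of 26 (23.1%), was one-sided the other way.

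All 36 strong peaks before the midpoint lay within the first 53 Mb, a limit read off the map after the peaks were seen. That stretch is 33.2% of the span and held 69.2% of the strong peaks but 19.9% of the peaks of 6 tags. Peaks that were not strong numbered 7.94 per Mb there and 15.2 per Mb beyond it. Its strong peaks were also higher, with a median of 22 tags against 16.5 for the 16 strong peaks beyond it. Of the former 22 had 20 or more tags (61.1%), of the latter 5 (31.2%). The 2 highest strong peaks of chromosome 7 nevertheless lay beyond it.

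**Figure D4:**
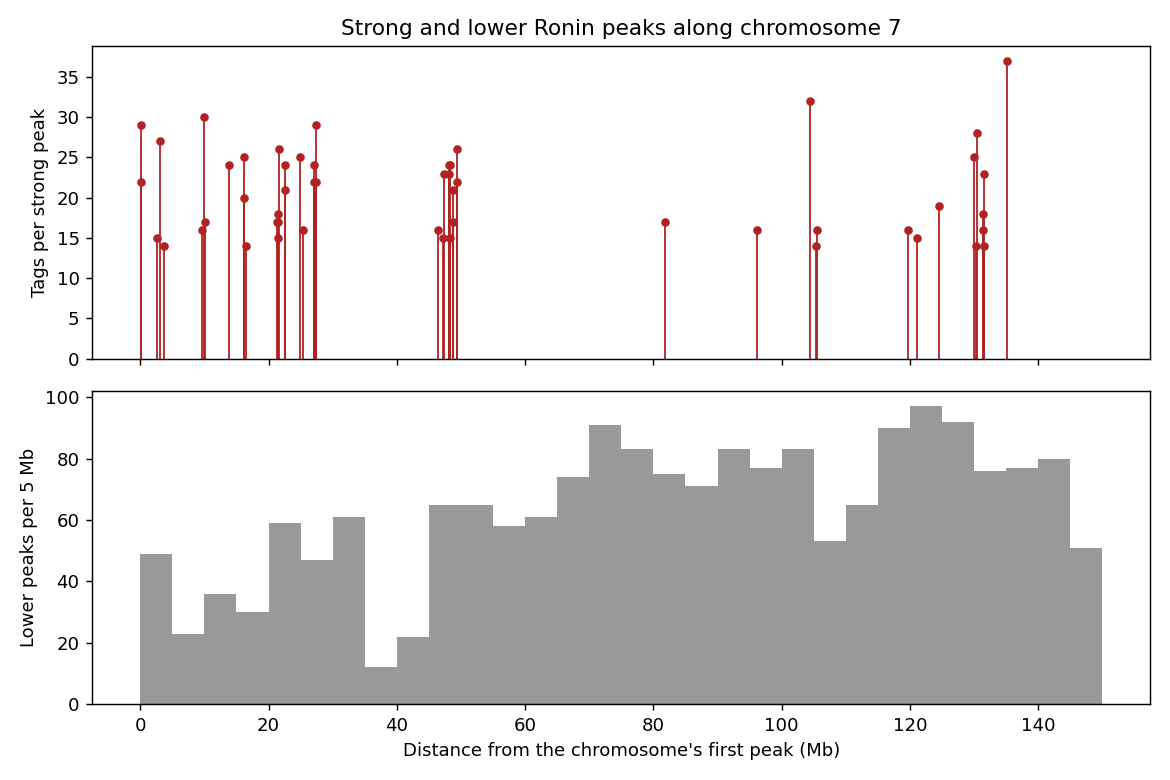
Chromosome 7 from its first peak (horizontal axis, distance in Mb). Upper panel: the 52 strong peaks with their tags; lower panel: peaks that are not strong, per 5 Mb. Of the strong peaks, 36 lie within 50 Mb of the first peak, where lower peaks are sparser.

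In steps of 10 Mb strong peaks were not most frequent where all peaks were. The step from 50 to 60 Mb held 10 strong peaks of 148, the step from 20 to 30 Mb 9 of 87, and the step from 130 to 140 Mb 8 of 166. The steps from 60 to 80 Mb held 0 strong peaks among 106 and 175, and the steps from 110 to 120 Mb and from 140 to 150 Mb held 0 among 116 and 159. Over the 14 complete steps strong peaks and peaks of 6 tags had a Spearman correlation of -0.18, and strong peaks and peaks of 10 to 13 tags 0.41. Neighbouring steps are not independent. Of 224 steps on the other autosomes 1 held 8 or more strong peaks, and on chromosome 7 there were 3 of 14. The 224 include the step from 0 to 10 Mb, which was left out for chromosome 7, where it held 5 strong peaks. With a window free to start at any strong peak, the densest 10 Mb of chromosome 7 ran from 24866742 to 30880202 and held 13, against 11 on chromosome 8 and 10 on chromosome 3.

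**Figure D5:**
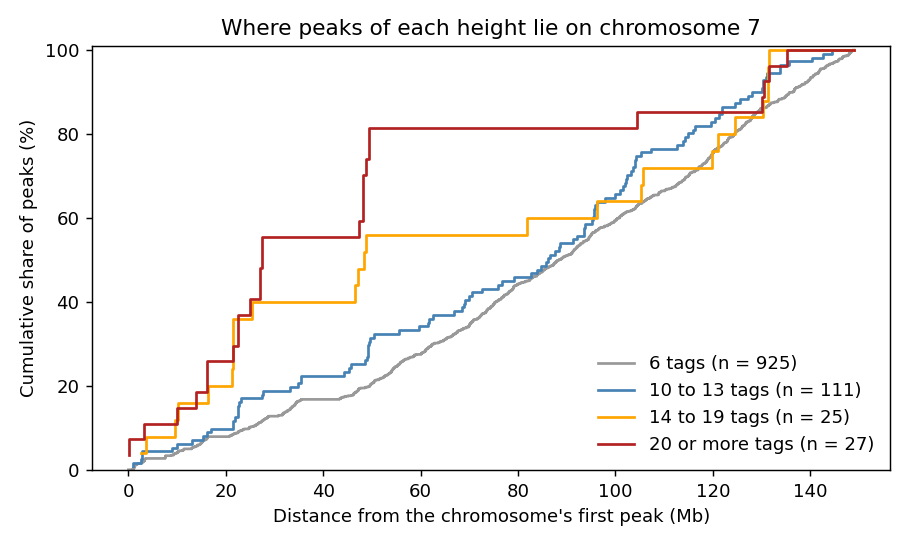
Cumulative share of chromosome 7 peaks (vertical axis, %) by distance from the first peak (horizontal axis, Mb) for 4 classes of tags. At 49.5 Mb from the first peak, which is position 53 Mb, the line for 6 tags is at 19.9% and that for 10 to 13 tags at 30.6%. The line for 20 or more tags reaches 81.5% before the midpoint.

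Most strong peaks of chromosome 7 had another nearby. Within 1 Mb, 45 of 52 (86.5%) had another strong peak, against 142 of 336 on the other autosomes (42.3%). Singly, the other autosomes ranged from 0% on chromosome 18 to 72.2% on chromosome 10. Within 100 kb the shares were 46.2% and 10.4%. A chromosome with more strong peaks has closer neighbours for that reason alone, so these shares do not set its spacing apart from its number. Joined by steps of at most 1 Mb, the 52 peaks fell into 17 loci: 7 single peaks, 2 pairs and 8 groups of 3 or more. The 8 groups held 41 of the 52 peaks (78.8%) in 9.13 Mb, which is 6.13% of the span. On the other autosomes 68 of 336 strong peaks (20.2%) lay in such groups.

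The largest group, from 49948220 to 52956436, held 11 strong peaks in 3.01 Mb, and the largest such chain on any other autosome held 7. Its peaks had 15 to 26 tags with a median of 22, and 38 lower peaks lay among them. The highest of them, with 26 tags, was its last, at 52956246. Its tightest stretch held 3 strong peaks of 23, 24 and 24 tags, at 51629256, 51639871 and 51723214.

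The group from 24866742 to 26023677 held 7 strong peaks in 1.16 Mb with 16 lower ones among them. Its first 5 were spaced 33188 to 62118 bp apart and had 17, 17, 18, 15 and 26 tags in order along the chromosome. The last 2 followed after a step of 967760 bp, as a close pair. A group from 133540548 to 135039381 held 7 as well, in 1.50 Mb, with 14 to 28 tags. It was the only group of more than 3 strong peaks beyond the midpoint.

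The group from 30553439 to 30880202 was the most uniform in height. Its 4 strong peaks had 22, 24, 29 and 22 tags in order, all in the range where chromosome 7 stood furthest above the other autosomes, and only 5 lower peaks lay among them. The other 4 groups had 3 strong peaks each. They ran from 6123930 to 7124090 (14 to 27 tags), from 13063567 to 13639914 (16 to 30 tags), from 19609429 to 19946012 (14 to 25 tags) and from 107854764 to 109082523 (14 to 32 tags). In each of these 4 the highest peak had at least 25 tags and the lowest at most 16. Inside the 8 groups 23.2% of the 177 peaks were strong.

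Some strong peaks lay very close together. Within 5000 bp, 6 of the 52 strong peaks had another strong peak (11.5%, 4.35% to 23.4%), against 6 of 336 on the other autosomes (1.79%, 0.658% to 3.85%). The latter were 4 of 35 on chromosome 2, about the same share as on chromosome 7, and 2 of 23 on chromosome 9. As above, a higher number of strong peaks brings closer neighbours by itself. The 3 pairs began at 26023006 and 26023487, 481 bp apart with 21 and 24 tags, at 134888883 and 134889577, 694 bp apart with 18 and 16 tags, and at 30875569 and 30880012, 4443 bp apart with 29 and 22 tags. The shortest step allowed in peak calling was 382 bp, so the first pair lies close to that limit. Whether each pair is 1 broad site or 2 sites was not tested. Peaks of 6 to 9 tags lay near strong peaks about as often as on the other autosomes: 39 of 52 strong peaks (75%) had one within 50 kb, against 72.6% on the other autosomes. For peaks of 10 to 13 tags the shares were 10 of 52 (19.2%) and 38 of 336 (11.3%).

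The highest peaks of chromosome 7 were spread over many loci. The first, ranked 21 in the whole list, was a single peak at 138703514 to 138703704 with 37 tags. The next was at 107854764 to 107854954, with 32 tags and row 35. The third, at 13482975 to 13483165, had 30 tags and row 44. Peaks of 29 tags followed at 3581377 and 30875569, 1 of 28 tags at 133924184 and 1 of 27 tags at 6649139. The last 3 of the best 10 had 26, 26 and 25 tags, at 25055246, 52956246 and 19609429. A further 2 peaks, at 28459674 and 133540548, also had 25, so the tenth place is a tie ordered by position. Over all 52 the tags ran from 14 to 37 with a median of 20.5, against a median of 18 and a maximum of at least 46 on the other autosomes.

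The limit of the strong class fell among peaks of nearly equal height. The last 2 chromosome 7 peaks inside it, rows 361 and 362, had 14 tags and lay at 133792635 and 135039191, both in the group near 134 Mb. The first 2 chromosome 7 peaks outside it, rows 442 and 443, had 13 tags and lay at 4454412 and 12495957. The first peak of the chromosome began at 3499815 and had 8 tags, and the last ended at 152506259 and had 7.

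Between the groups lay long stretches with no strong peak. The longest ran from 52956246 to 85273478, 32.3 Mb, and held 460 lower peaks, of which the highest had 11 tags. The next, from 30880012 to 49948220, was 19.1 Mb long with 134 lower peaks. These differed in lower peaks as well: 14.2 per Mb in the first and 7.03 per Mb in the second. A short stretch from 7123900 to 13063567 held 2.36 per Mb. The longest stretch of chromosome 7 was within the range of the other autosomes, 16.1 to 35.2 Mb, although it had the most strong peaks. Together its 5 longest stretches cover 62.9% of the span and held 13.1 lower peaks per Mb, against 12.2 over the rest. For peaks of 10 to 13 tags the values were 0.618 and 0.960 per Mb.

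Single strong peaks occurred only beyond the midpoint, with 1 exception at 17323538. The peak that ended the longest stretch, at 85273478, had 17 tags, and those at 99709769, 123236621 and 124571777 had 16, 16 and 15. The single peak at 127978949 had 19. With the peak of 37 tags at 138703514 these make 7. The 2 pairs, at 3568796 and 3581377 and at 28459674 and 28834998, both lay before the midpoint.

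The candidates removed by the caller's filters were spread unevenly over height. Peak numbers run within a chromosome roughly by falling height, and gaps in them mark candidates that are not in the list. On chromosome 7 the first missing number was 25: all of numbers 1 to 24 were present, and all 24 were strong peaks. The limit of 24 is the last number before that first gap, so 0 missing of 24 follows from the choice of limit. The values of the other autosomes at that limit are therefore no like-for-like comparison. On the other autosomes 137 of the 432 candidates numbered 1 to 24 were missing (31.7%, 27.3% to 36.3%), from 3 on chromosome 8 to 15 on chromosome 9, and the first missing number was 16 or lower on each. Over the first 50 numbers the shares came closer, 9 of 50 (18%, 8.58% to 31.4%) and 225 of 900 (25%, 22.2% to 28.0%). Over the first 200 numbers the shares were 14.5% on chromosome 7 and 15.2% on the other autosomes. Over all numbers 547 of 2505 were missing on chromosome 7 (21.8%) and 20.9% on the other autosomes. The part of these removals in the lead of chromosome 7 was not tested. Of the 57 peaks present among its numbers 1 to 70, 51 were strong, and the other 6 had 12 or 13 tags. The remaining strong peak, at 85273478, was numbered 119.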

How the data were processed

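Only the peaks of the Ronin ChIP sample were used, in 1 file. Per the submitters' processing notes the authors called them with HOMER 4.7, and the build is mm9, with the aligner not given in the sources used here. The windows of 191 bp, a spacing of 382 bp or more, a false discovery rate limit of 0.001 and the matching minimum of 6 tags come per the file headers. Candidates had to exceed the control and the surrounding 10000 bp by 4-fold at a Poisson p of 0.0001, and 9531 of 47133 were removed against the control. The score deposited by the authors is 1 for every peak and ranks nothing. Tags were therefore recovered from the list's order: each step back in chromosome and position starts a lower count, and the largest of 43 groups was set to 6 tags. Summed over peaks this gives 266288 tags where the header states 268208, with 74 peaks under 6. The joining of peaks was checked on a short made-up list with a known answer. The ratio intervals were checked on simulated independent counts, so their cover for grouped peaks was not checked. The recovery of tags was checked on simulated lists only for peaks of up to 14 tags, so the higher classes were not covered.

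Strong peaks are rows 1 to 395. Span runs from the first to the last peak of a chromosome. Shares have exact Clopper-Pearson and rate ratios exact conditional 95% intervals, and no test across peaks was run. The members, classes and lists were chosen with earlier results of these data known. The motif search and the limits at 53 Mb and at peak number 24 were chosen after the list was seen. Regions named are all groups of 3 or more strong peaks joined by steps of at most 1 Mb, the 10 of best rank, pairs within 5000 bp, the 2 peaks on either side of the strong limit, the chromosome's ends and the longest stretch; others were named after their values were seen. Zinc finger genes are those named Zfp, Zscan, Zkscan, Zim or Zik with a number. Promoters were found for 1742 of 2030 protein-coding genes of chromosome 7 (85.8%). The RefSeq tables are of another build, so only chromosome, gene order and sequence were taken from them. Alternatives changed the limit of the strong class, the joining of close peaks, the denominator and the distance. The software was Python 3.11.15 with scipy 1.17.1, numpy 2.4.6, matplotlib 3.10.9 and pandas 2.3.3.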

Additional observations from a re-analysis of the deposited data

How the results depend on the processing

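Of 49 values under other settings, 24 lay within the 95% interval of the value reported and 25 did not; limits between tag counts were chosen after seeing the data. The share of chromosome 7 peaks that are strong was 1.43%, 4.03% and 8.32% for rows 1 to 200, 1000 and 2000, and 1.38%, 3.73% and 8.32% at 20, 12 and 10 or more tags, by construction of larger or smaller classes. It was 1.90% and 0.884% with strong peaks within 100 kb and 1 Mb counted once. The density ratio was 1.32 and 1.36 for rows 1 to 1000 and 2000, 1.59 and 1.14 at 12 and 10 or more tags, 1.03 with 1 Mb counted once (17 loci) and 1.42 per gene. With 1000 bp and 100 kb counted once it was 2.26 and 1.77. Its interval included 1 with 1 Mb counted once (0.593 to 1.69) and at 10 or more tags (0.970 to 1.34). Rows 1000 and 2000 fall within 502 and 1094 peaks of equal tags in chromosome order, which favours chromosomes of low number. The share before the midpoint was 51.5% for rows 1 to 2000 and at 10 or more tags, 52.9% with 1 Mb counted once and 81.5% at 20 or more tags. The median position was 50.3 Mb, and 73.5 Mb for rows 1 to 2000 and at 10 or more tags. The share with a strong neighbour was 71.4% for rows 1 to 200, 74.1% at 20 or more tags, and 46.2% and 96.2% at distances of 100 kb and 5 Mb. The share of missing numbers was 18% over the first 50. The direction of the moves with the neighbour distance, and of the strong share after joining, follows from the setting. For the other moves the cause was not tested. At this depth the limit between 13 and 14 tags rests on 1 read.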
